A study of Mus musculus with 24 samples.

Results

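Homozygous knockout microglia were compared with wild-type microglia at 3 months of age, over 8 of the 24 libraries of a bulk RNA-seq series on 3110043O21Rik, the mouse counterpart of C9orf72. The 8 libraries were taken by genotype and age alone, 4 from mice labelled wild type and 4 from mice labelled homozygous for the C9orf72 knockout, all of strain C57BL/6J. Heterozygous knockout mice of 3 months (4 libraries) entered the same model, and 4 wild-type and 4 homozygous mice of 17 months were used as a second age, where 4 further mice that the column headers call hemi were taken as the heterozygotes of the labels and entered the model of both ages. Per the labels' protocols, brains without meninges were dissociated with papain, myelin was depleted, cells were collected with CD11b magnetic beads, and polyadenylated RNA was sequenced from a single end. How the allele was made is not given in the sources used here. An animal is written as its genotype, WT, HET or HOM, followed by its number from the column headers.

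The C9ORF72 protein forms a complex with SMCR8 and WDR41 that acts on small GTPases of the endosome and lysosome system and on autophagy. A repeat expansion in the human gene causes amyotrophic lateral sclerosis and frontotemporal dementia, and the gene is strongly expressed in myeloid cells. Microglia, the resident macrophages of the brain, carry CD11b on their surface, as do neutrophils and monocytes, so the beads can also collect those cells.

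Expression is given as transcripts per 1000000 (TPM), a level scaled for transcript length and library size, and as RPKM, a level of reads scaled for the same, from a separate table of the same animals. Library depth, in units of 1000000 alignments, was 21.8 to 28.4 in wild types and 30.6 to 33.8 in homozygotes, so the ranges of depth did not overlap. The sex is not labelled, and Y-linked transcripts were present in 1 of 4 wild types (WT-8326) and in 2 of 4 homozygotes (HOM-8282 and HOM-8285). Among the 12 animals of 3 months, HET-8304 stood apart, with choroid and ependymal markers summing to 4190.1 TPM and oligodendrocyte markers to 4187 TPM, above all others. Microglial markers were high in all 8 libraries. Csf1r, the receptor for colony stimulating factor 1, ranged from 5507 to 6834 TPM, Tmem119 from 2159 to 2953 TPM, and the purinergic receptor P2ry12 from 1956 to 2953 TPM.

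The targeted transcript, 3110043O21Rik, lies at chr4:35191285-35226175 (mm10, minus strand, protein coding). It stood at 23.5, 21.9, 20.4 and 25.6 TPM in the wild types and at 0.0491, 0.265, 0.139 and 0.104 TPM in the homozygotes. Every homozygote was far below every wild type, and the mean in homozygotes was 0.610% of the wild-type mean in TPM and 0.603% in RPKM. The exact two-sided permutation test gave p = 0.0286, the smallest that 4 against 4 animals allow. Heterozygotes lay between, at 9.73 ± 1.75 TPM (SD, n = 4).

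Genes were tested with limma on log2(TPM + 1) over the 12 animals of 3 months, and genes with a Benjamini-Hochberg adjusted p under 0.05 are referred to as called. All differences below are homozygous minus wild type on this log2 scale unless another scale is named, and the scale understates changes of genes near 1 TPM. Of 11587 genes tested, 7 were called (0.0604%), 2 higher (0.0173%) and 5 lower (0.0432%) in homozygotes. The balance of higher and lower depends on the scaling. As deposited, the median difference of all genes was -0.099, and 24.8% of genes had a higher mean in homozygotes. With each animal centred on its median log2 value the median difference was 0.014, and 26 genes were called (0.224%), 22 higher and 4 lower. The RPKM table gave 6 called genes of 10781 (0.0557%), 4 higher and 2 lower. Of the 7 genes called as deposited, 6 were also called with median centring, all but Rab11fip5, and 3 in RPKM, namely 3110043O21Rik, Gm3435 and Rpl39. Leaving out any 1 of 11 animals left 2 or 3 called genes, always including 3110043O21Rik and Tlr12, while leaving out the heterozygote HET-8304 gave 103. The 5 other called genes are therefore near the threshold.

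**Figure D1:**
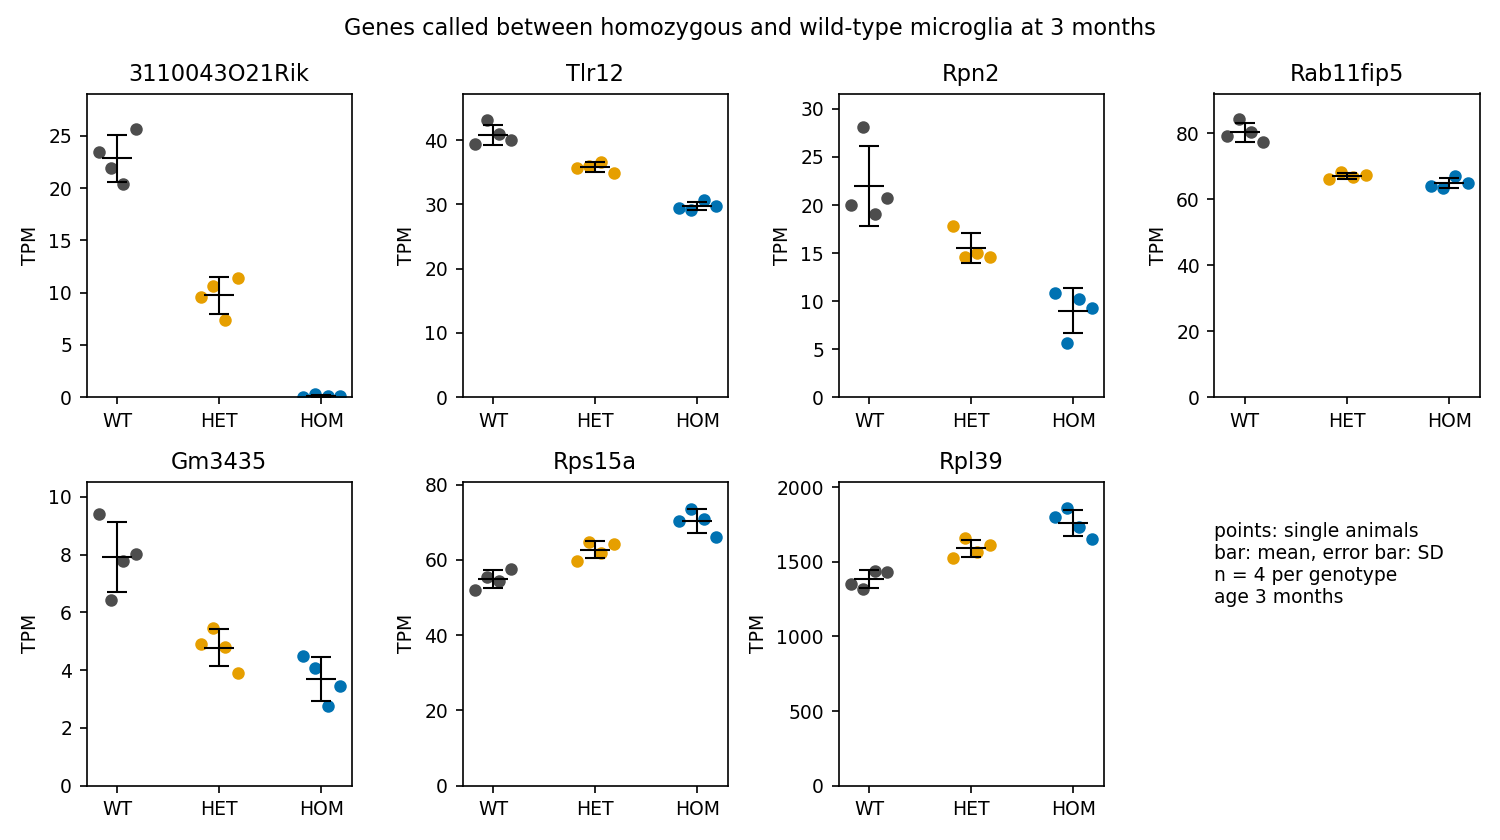
TPM (vertical axes, each from 0) of the 7 called genes in wild-type (WT), heterozygous (HET) and homozygous (HOM) microglia of 3 months; points are animals, bars the mean and error bars the SD (n = 4 per genotype). For every one of the 7 genes the homozygous and wild-type animals do not overlap, and the heterozygous mean lies between the other means.

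Tlr12 fell. It encodes a Toll-like receptor of the endosome that detects profilin of protozoan parasites, and lies at chr4:128615443-128618619 (minus strand). The wild types held 39.5, 43.1, 40.9 and 39.96 TPM and the homozygotes 29.4, 29.1, 30.7 and 29.8 TPM. The homozygotes were all below the wild types and close to one another, and the 4 heterozygotes (34.8 to 36.6 TPM) filled the space between. The mean fell by 27.2%, a log2 difference of -0.44 (SE 0.0504, adjusted p = 0.00629), and -0.37 in RPKM, where the adjusted p was 0.0828. At 17 months it was -0.40, with ranges that overlapped, 31.3 to 48.7 TPM in wild types and 28.2 to 36.4 TPM in homozygotes (adjusted p = 0.181).

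Rab11fip5 also fell. Its product binds the small GTPase Rab11 on recycling endosomes, and the gene lies at chr6:85334962-85374634 (minus strand). Wild-type animals had 79.3, 84.2, 80.5 and 77.3 TPM and homozygous animals 64.0, 63.5, 67.2 and 64.9 TPM. The groups were apart, and the heterozygotes, at 66.1 to 68.3 TPM, sat next to the homozygotes. The mean fell by 19.2%, a log2 difference of -0.30 (SE 0.0456, adjusted p = 0.0441) and -0.24 in RPKM. Median centring, which took the all-gene shift out, left -0.19 (adjusted p = 0.213). At 17 months the difference was 0.14.

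Gm3435, a predicted protein-coding gene at chr17:15010176-15022449 (plus strand), fell in both tables. It stood at 9.40, 6.43, 7.78 and 8.03 TPM in wild types and 4.48, 4.08, 2.74 and 3.44 TPM in homozygotes, with no overlap, and at 3.91 to 5.47 TPM in heterozygotes. The mean fell by 53.4%, a log2 difference of -0.93 (SE 0.143, adjusted p = 0.0441), and -0.70 in RPKM (adjusted p = 0.0476). The 17-month animals were apart in the same direction, 5.10 to 8.81 TPM against 2.92 to 4.59 TPM, with a difference of -0.67 and an adjusted p of 0.0959.

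Rpn2 fell in the TPM table only. It encodes ribophorin II, a subunit of the oligosaccharyltransferase that attaches N-glycans to proteins entering the endoplasmic reticulum, and lies at chr2:157279017-157326319 (plus strand). Wild types held 20.01, 28.1, 19.1 and 20.8 TPM and homozygotes 10.8, 5.59, 10.2 and 9.32 TPM, without overlap (difference -1.22, SE 0.174, adjusted p = 0.0441). In RPKM the means were 127 ± 8.25 and 126 ± 8.43 (SD, n = 4 each), a difference of -0.0057. The TPM listed for Rpn2 is low for its RPKM. Its ratio of mean TPM to mean RPKM in wild types was 0.173, against a median of 2.31 over 10208 genes, and only 0.255% of genes had a lower ratio. The other 11 subunits and partners of the enzyme on the list gave no call. Its catalytic subunits Stt3a and Stt3b differed by -0.022 and -0.079, and Rpn1, Ddost and Dad1 by -0.11, -0.024 and 0.052. The wild-type and homozygous ranges overlapped for each of those 11 genes.

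Both genes that rose encode cytosolic ribosomal proteins. Ribosomal proteins of the small (Rps) and large (Rpl) subunit assemble with ribosomal RNA into the ribosome, and their mRNAs are short, very abundant and translated under control of mTORC1. Rps15a (chr7:118104372-118116188, minus strand) stood at 52.1, 55.6, 54.3 and 57.7 TPM in wild types and 70.4, 73.6, 70.9 and 66.0 TPM in homozygotes. Rpl39 (chrX:37082520-37085402, minus strand) stood at 1353, 1321, 1439 and 1430.2 TPM in wild types and 1802, 1857, 1731 and 1652 TPM in homozygotes. All homozygotes lay above all wild types for both genes, with heterozygotes at 59.8 to 64.7 TPM for Rps15a, between the groups, and at 1527 to 1659.5 TPM for Rpl39, where the highest heterozygote passed the lowest homozygote. The means rose by 27.9% and 27.1%. The log2 differences were 0.35 (SE 0.0538) and 0.34 (SE 0.0533), each with an adjusted p of 0.0441. In RPKM they were 0.45 and 0.41, with adjusted p-values of 0.267 and 0.0476. The TPM listed for both is high for their RPKM, with ratios of 10.3 for Rps15a and 9.86 for Rpl39 against the all-gene median of 2.31, and 99.4% and 99.3% of genes had a lower ratio.

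The whole family leaned the same way, although most members were not called. Of 82 ribosomal protein genes tested, 79 had a higher mean in homozygotes, against 24.8% of all genes. The median difference was 0.24 for the 33 small-subunit genes and 0.21 for the 49 large-subunit genes, beside -0.099 for all genes. In 65 of the 82 genes every homozygote was above every wild type, where 1.78% of all genes were so, and in 0 the reverse held, where 15.1% of all genes were so. An unadjusted p under 0.05 with a higher mean was reached by 67 of the 82 (all genes 2.57%), and with a lower mean by 1 (all genes 17.1%). Only 2 of the 82 passed the adjusted threshold as deposited, 9 with median centring and 2 in RPKM, all higher, where 0.19% and 0.0371% of all genes were called higher, and with a term for sex neither Rps15a nor Rpl39 was called. For 75 of the 82 genes the heterozygous mean lay between the other means. The share of all genes with such an order was not counted, so no excess over other genes can be read from it. All 4 heterozygotes held Y-linked transcripts, against 1 of 4 wild types and 2 of 4 homozygotes, and the part of sex in this order was not tested.

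Summed over the family, ribosomal protein transcripts made up 11.1%, 10.7%, 11.1% and 10.4% of the listed TPM in the wild types and 13.3%, 12.9%, 12.3% and 12.4% in the homozygotes. The homozygotes were all above the wild types. Heterozygotes had 11.1%, 11.1%, 13.1% and 12.1%. HET-8302 and HET-8303 lay within the range of the wild types, and HET-8304 lay among the homozygotes. The sum for the small subunit was 40243, 40046, 41732 and 38998 TPM in wild types and 50325, 47177, 45685 and 46541 TPM in homozygotes, 1.18 times the wild-type mean. The sum for the large subunit was 52960.2 to 57713 TPM in wild types and 63193 to 68052 TPM in homozygotes, 1.17 times.

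**Figure D2:**
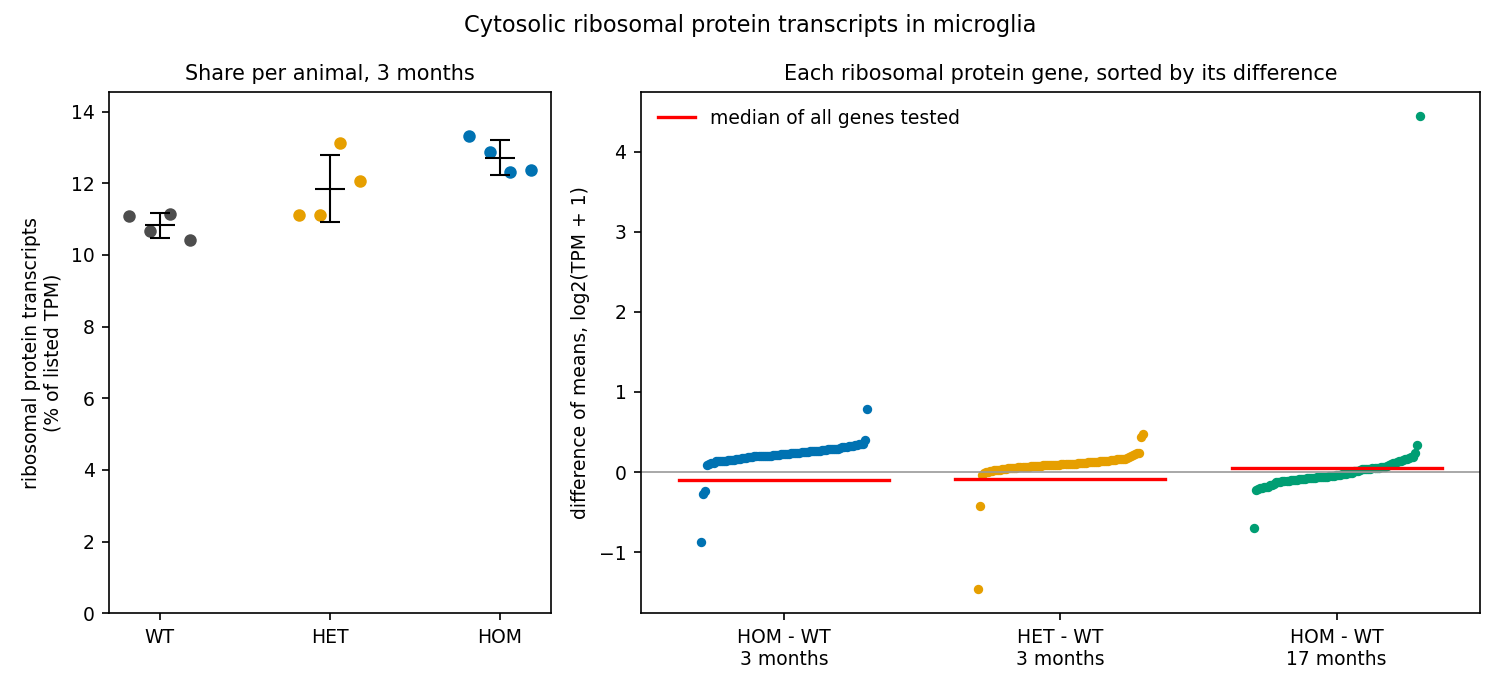
Left, share of ribosomal protein transcripts in the listed TPM (percent, vertical axis from 0) for each animal of 3 months, with mean and SD (n = 4). Right, the difference of mean log2(TPM + 1) for each of the 82 ribosomal protein genes, sorted, in 3 comparisons, with a red line at the median of all genes tested; most points lie above the line at 3 months and most below it at 17 months, and both comparisons at 3 months share the wild types.

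Among single members, the most abundant small-subunit transcript was Rps29, at 6339, 6352, 6669 and 5870.3 TPM in wild types and 7852, 7140.2, 7033 and 7423 TPM in homozygotes. The groups did not overlap, yet the difference of 0.22 had an adjusted p of 0.173. Rplp1, a protein of the ribosomal stalk, led the large subunit with 5205, 5091, 5639 and 4805 TPM in wild types and 6507, 5904, 6047 and 6203 TPM in homozygotes (adjusted p = 0.177). Its partner Rplp2 gave 0.34 and Rps12 gave 0.31, with adjusted p-values of 0.0829 and 0.0801. Of the 10 genes nearest to the threshold on the higher side whose animals did not overlap, 7 encode ribosomal proteins, namely Rps3a1, Rpl30, Rps25, Rps27a, Rpl35a, Rpl23 and Rps24. They had differences from 0.27 to 0.40 and adjusted p-values from 0.0512 to 0.0559. In RPKM Rpl30, whose ratio of TPM to RPKM was 73.9, went the other way, at -0.14, and the other 6 lay between 0.37 and 0.47. Rpl22l1, a paralog of Rpl22, had the largest difference of the family at 0.79 but an adjusted p of 0.163. It was singled out after its values were seen, as were Rps21 (-0.87) and Rpl29 (-0.27), which had a lower mean in homozygotes. Their animals overlapped, and their RPKM differences were 0.32 and 0.22. Ribosomal protein genes have many processed pseudogenes, and the way reads were split between copies is not given in the sources used here.

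The family was also higher in the RPKM table, with median differences of 0.32 for the small and 0.27 for the large subunit beside -0.035 for all genes, and 78 of the 82 genes were higher in both tables (all genes in RPKM 39.9%). Depth, sex and several marker sums (below) moved with genotype, and their part in the difference was not tested, apart from sex. With a sex term the median over the 82 genes was 0.21, and in the 3 wild types and 2 homozygotes without Y-linked transcripts it was 0.17. Transcript length moved with the difference as well. Other genes whose longest annotated transcript has up to 500 bases had a median difference of 0.11 (45 genes), those of 500 to 1000 bases 0.026 (434 genes), those of 1000 to 2000 bases -0.046 (1848 genes), and those over 5000 bases -0.14 (2409 genes). Ribosomal protein genes were short, with a median of 1076.5 bases against 3351.5 for other genes. Within the ranges up to 2000 bases their medians were 0.22 (5 genes), 0.21 (31 genes) and 0.20 (33 genes), above the other genes of each range. They were 0.24 from 2000 to 3000 bases (9 genes) and 0.28 from 3000 to 5000 bases (3 genes). Over 5000 bases there was 1 gene, at 0.35. The longest annotated transcript need not be the one expressed, so a shared range is not a match of expressed length. A length was found for 11200 of the 11587 genes (96.7%). What length contributes was not tested.

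At 17 months the family did not lean the same way. The medians were -0.014 for the small and -0.048 for the large subunit beside 0.052 for all genes, and 33 of the 82 genes were higher in homozygotes, where 60% of all genes were. The difference between the ages was itself tested over the 24 libraries. It was above 0, meaning larger at 3 months, in 77 of the 82 genes (all genes 28.9%), with an unadjusted p under 0.05 in 42 (all genes 3.42%), and 1 gene of the family, Rpl21, was called (0.43, adjusted p = 0.0406). Marker lists of other cells also turned between the ages. The median for endothelial markers was -1.05 at 3 months and 0.48 at 17 months, for mural markers -0.81 and 0.55, and for choroid and ependymal markers -0.68 and 1.20, while neutrophil markers were higher at both ages (1.21 and 1.66). Their part in the difference between ages was not tested. Y-linked transcripts also varied at 17 months. They summed to 0 to 61.1 TPM (mean 15.3) in wild types and 0.143 to 73.7 TPM (mean 48.9) in homozygotes. The part of sex in the family's difference between ages was not tested.

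Promoter sequence is shown for some of the called and nearly called ribosomal protein genes because most of the family differed in 1 direction. Every stretch shown holds a motif, and none is shown for Rpl30, Rps27a or Rps24. The stretches shown therefore do not tell how common a motif is. RefSeq (GRCm38.p6) windows from 250 bases before to 50 bases after the annotated start were found for 61 of the 82 genes and for 8956 genes tested. The letters CTTCCG or, on the other strand, CGGAAG, the core bound by ETS factors, were in 42 of the 61 ribosomal windows (68.9%) and in 35.7% of all windows. CTTTCC or GGAAAG, a stretch of the kind found at pyrimidine-rich start sites, was in 31 (50.8%) and in 30.5% of all windows. CCATCTT or AAGATGG, the YY1 core, was in 10 (16.4%, all windows 8.72%). TATAAA or TTTATA was in 7 (11.5%, all windows 8.77%), and CACGTG, the same on both strands, in 6 (9.84%, all windows 11.8%). In all, 9 motifs were searched, and the other 4 are longer or shifted forms that overlap these. CCGGAAG or CTTCCGG stood in 41.0% of ribosomal and 20.5% of all windows, while TTCCGG or CCGGAA stood in 54.1% and 31.9%. CTCTTTCC or GGAAAGAG stood in 16.4% of ribosomal and 3.73% of all windows. For GTCACGTG or CACGTGAC the shares were 6.56% and 4.85%. The motifs were all chosen with the results known. Genes outside the family had a median of -0.10 with CTTCCG and -0.10 without it. The windows below have 30 bases, 5′ to 3′ along the gene, with 1 motif in capitals and positions counted from the annotated start. Other searched motifs within a window are not marked, such as CCATCTT in that of Rpl35a.
Rps15a (chr7:118116183-118116212, minus strand, motif from position -53): ctcgcgatagcgCTTCCGcttcccataatt
Rpl39 (chrX:37085182-37085211, minus strand, motif from position 24): tctaatcgcgttCTTCCGgtcccggccttt
Rps3a1 (chr3:86142659-86142688, minus strand, motif from position -8): gattcttaaagcCGGAAGggcgaaagagca
Rps25 (chr9:44407630-44407659, plus strand, motif from position -72): cacccattgcccCGGAAGtactctctcgag
Rpl35a (chr16:33056472-33056501, plus strand, motif from position 3): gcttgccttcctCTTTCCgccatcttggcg
Rpl23 (chr11:97782575-97782604, minus strand, motif from position -153): tatcgccaattaCTTCCGaggcgttgggtg

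The list of translation factors, which also holds Tpt1, Btf3 and Npm1, leaned less far in the same direction as the ribosomal proteins. Its 38 genes had a median of 0.024, with 7 higher and 3 lower at an unadjusted p under 0.05 (all genes 2.57% and 17.1%). A higher mean in homozygotes was found for 22 as deposited (all genes 24.8%) and 32 with median centring (all genes 54.2%). Their summed level was 12669 to 13823 TPM in wild types and 14570.3 to 15064 TPM in homozygotes, which did not overlap. Tpt1 is a large part of this sum and of its rise, and whether the groups stay apart without it was not tested. Tpt1, the translationally controlled tumour protein, had 2771, 2774, 2903 and 3042 TPM in wild types and 3685, 3856, 3490.0 and 3464 TPM in homozygotes. These did not overlap, and the difference of 0.33 just missed the threshold (adjusted p = 0.0512). Eef1b2, a subunit of the factor that recharges elongation factor 1, gave 0.26 (adjusted p = 0.0559), while Eef1a1 and Eef2, the main elongation factors, gave 0.16 and -0.0062 with overlapping animals. With median centring 4 of the list were called (0.224% of all genes), Tpt1 (0.45), Eef1b2 (0.37), Btf3 and Npm1.

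Proteins of the mitochondrial ribosome, which are encoded apart from the cytosolic set, had a median of -0.040 over 76 genes, with 1 higher and 3 lower at an unadjusted p under 0.05 (all genes 2.57% and 17.1%). Its most abundant members Mrpl52 and Mrpl24 differed by 0.051 and 0.0068. Factors that build the ribosome had a median of -0.15 over 25 genes, with 5 higher in homozygotes as deposited (all genes 24.8%) and 10 with median centring (all genes 54.2%). Their summed level as deposited was 915 to 982 TPM in wild types and 843 to 888 TPM in homozygotes, which did not overlap. That sum holds the all-gene shift and was not compared after median centring. Bop1, needed for maturation of the large subunit, gave -0.36 (adjusted p = 0.0993) and Mybbp1a -0.21 (adjusted p = 0.127).

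Aminoacyl-tRNA synthetases, which load amino acids onto tRNA, had the lowest median of the lists of cellular functions, -0.18 over 23 genes, and 1 of them had a higher mean in homozygotes (all genes 24.8%). In RPKM the median was -0.072 and with median centring -0.064. Their summed level was 1312, 1286, 1269 and 1190.1 TPM in wild types and 1119, 1070.2, 1138 and 1175 TPM in homozygotes. The groups were just apart as deposited, and heterozygotes lay with the homozygotes at 1047 to 1112 TPM. Mars, the methionyl-tRNA synthetase, had 85.9, 75.7, 76.4 and 67.5 TPM in wild types and 56.6, 51.2, 52.9 and 62.1 TPM in homozygotes, all lower (difference -0.45, adjusted p = 0.0538). Nars and Aars gave -0.18 and -0.20, while Qars gave -0.0043 with animals that overlapped.

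Mars was among the genes nearest to the threshold on the lower side, none of which was called. Shmt2, which makes glycine from serine in mitochondria, had 39.8, 39.3, 36.7 and 36.7 TPM in wild types and 30.4, 30.0, 30.7 and 31.4 TPM in homozygotes (adjusted p = 0.0538). Gbgt1, a glycosyltransferase, had 59.3, 65.7, 57.3 and 62.5 TPM and 46.9, 49.9, 45.6 and 39.6 TPM (adjusted p = 0.0538). Rest, a repressor of neuronal genes, had 9.29, 8.85, 7.44 and 9.30 TPM and 5.599, 6.16, 5.88 and 5.87 TPM (adjusted p = 0.0785). The wild types were higher without overlap for all 3, which the rule that picked them required. Of all genes 15.1% were apart in this direction. Heterozygous minus wild type was -0.31 for Shmt2, -0.45 for Gbgt1 and -0.55 for Rest, against the same wild types. At 17 months homozygous minus wild type was 0.16, 0.012 and -0.011 for the same genes. The others by this rule were Taf6, a subunit of the TFIID complex, Fam219a, Cdk20, Kctd21, Carkd and the vitamin transporter Slc5a6, with differences from -0.46 to -0.25 and adjusted p-values from 0.0538 to 0.064. Carkd is not in the RPKM fit, and the RPKM differences of the other 5 ran from -0.36 to -0.23.

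The partners of C9ORF72 gave no call besides the target itself. Smcr8 stood at 26.6, 28.9, 26.0 and 31.7 TPM in wild types and 23.3, 23.3, 24.3 and 26.4 TPM in homozygotes, and Wdr41 at 38.4, 36.2, 33.4 and 35.0 TPM and 31.1, 30.2, 31.7 and 38.7 TPM. Both overlapped, with differences of -0.21 and -0.12 (adjusted p = 0.435 and 0.521). Of 16 genes listed for the complex and the proteins it touches, 14 were tested. Ulk1, the kinase that starts autophagy, had 29.4, 31.2, 26.4 and 28.8 TPM in wild types and 21.5, 20.8, 23.9 and 20.7 TPM in homozygotes, all lower, with a difference of -0.40 and an adjusted p of 0.094. Its partner Atg13 gave -0.26 (adjusted p = 0.0896), while Rb1cc1 and Atg101 overlapped at -0.14 and -0.049. Rab29 gave -0.20 (adjusted p = 0.163), and Rab8a, Rab32, Arf1, Arf6 and Tbk1 lay between -0.088 and 0.033. Rab39b and Optn were under 1 TPM on average and were not tested.

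The autophagy, lysosome and endosome lists lay at or near the median of all genes. Autophagy genes had a median of -0.11 as deposited and 0.0018 with median centring (38 genes, 12 lower and 0 higher at an unadjusted p under 0.05, where 17.1% and 2.57% of all genes were). Lysosome genes had -0.058 and 0.054 (62 genes, 8 lower and 2 higher), and their summed level overlapped, 56147 to 59304 TPM in wild types against 54286 to 57604 TPM in homozygotes. Gaa, the enzyme that breaks down lysosomal glycogen, had 126, 122, 126 and 115 TPM in wild types and 103, 95.2, 98.5 and 105 TPM in homozygotes, without overlap and without a call (adjusted p = 0.0815). The proteases Ctsd and Ctss gave -0.21 and 0.15. Endosome and recycling genes had medians of -0.091 as deposited and 0.022 centred (39 genes), and Rab11fip5 was their only call. Toll-like receptors and their endosomal helpers had -0.10 and 0.0091 (28 genes), with Tlr12 the only call. Unc93b1, the chaperone that carries these receptors to endosomes, gave -0.12 (adjusted p = 0.204).

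mTORC1 and amino acid sensing genes had a median of -0.10 as deposited and 0.011 centred, with 11 of 41 lower and 0 higher at an unadjusted p under 0.05 (all genes 17.1% and 2.57%). Their summed level as deposited did not overlap, 2105 to 2148 TPM in wild types against 1919 to 1981 TPM in homozygotes. The homozygous mean was 0.92 times the wild-type mean. This sum holds the all-gene shift (median -0.099) and was not compared after median centring, so the lack of overlap is not particular to the list. Slc7a5, the large neutral amino acid transporter, had 96.9, 65.6, 76.4 and 49.5 TPM in wild types and 45.4, 39.6, 44.9 and 46.8 TPM in homozygotes. The wild types were higher and spread widely, and the difference of -0.66 had an adjusted p of 0.0993. Sesn2, a leucine sensor that responds to stress, gave -0.46 (adjusted p = 0.128).

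**Figure D3:**
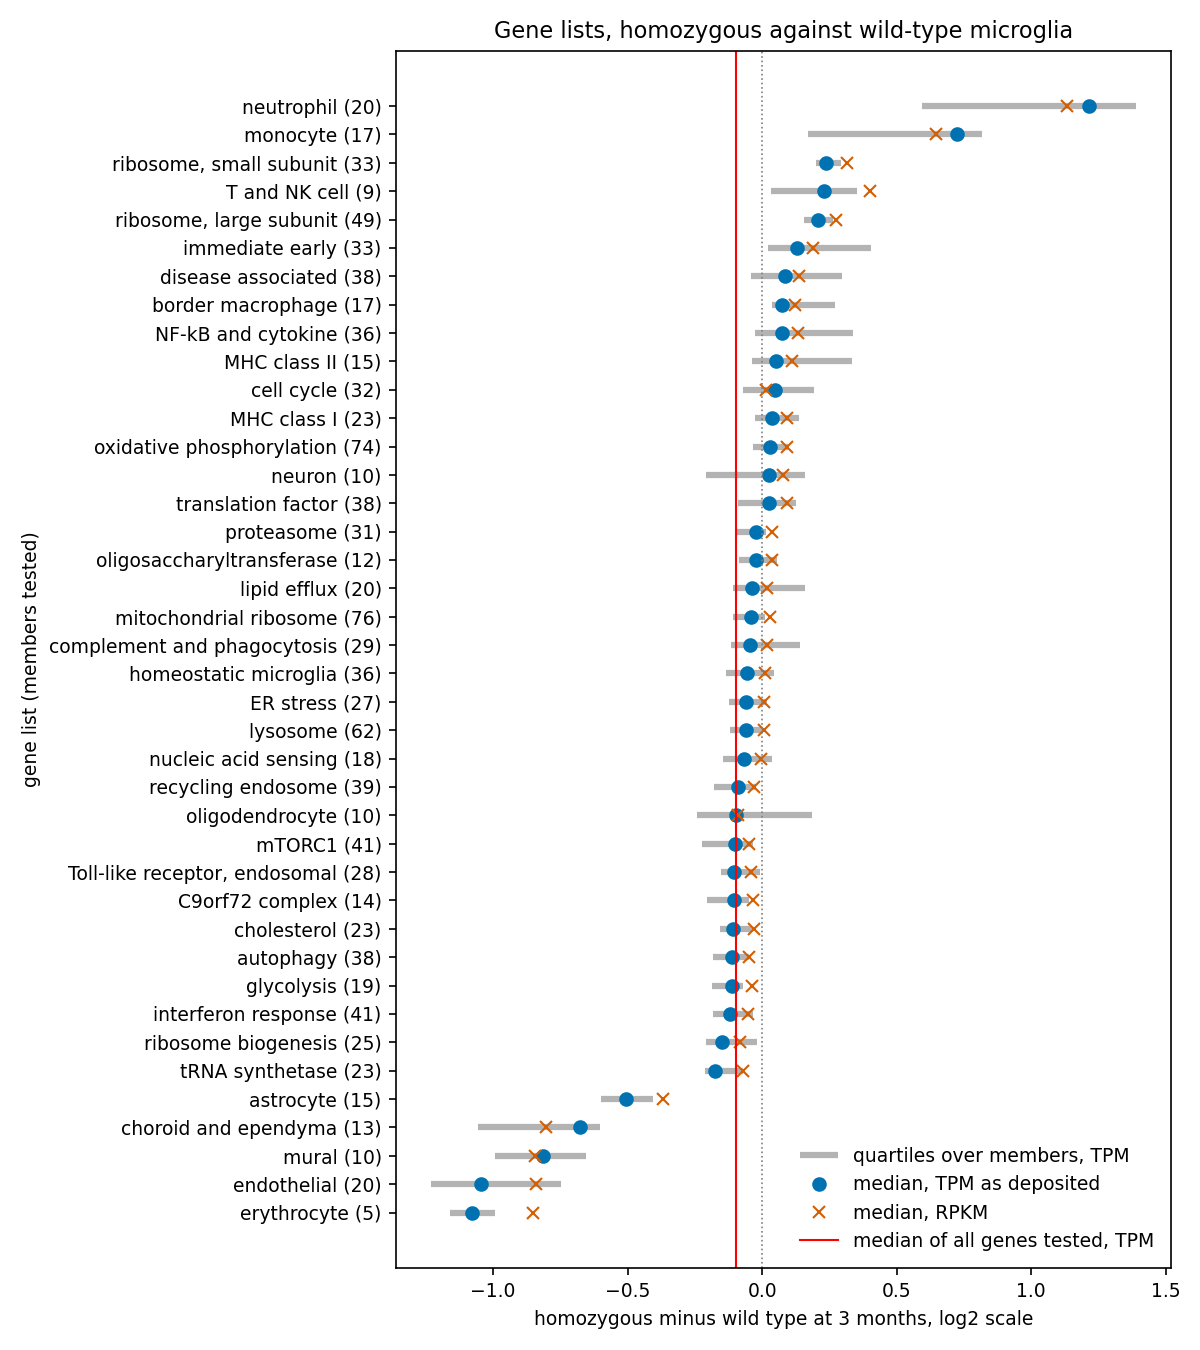
Median difference between homozygous and wild-type microglia at 3 months for each gene list with at least 5 members tested (horizontal axis, log2 scale; number of members in brackets), in TPM (dots, with bars for the quartiles over members) and RPKM (crosses). The red line marks the TPM median of all genes tested at -0.099; both ribosome lists and the neutrophil and monocyte lists lie to its right, and endothelial, mural, erythrocyte, choroid and ependyma, and astrocyte lists to its left.

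Homeostatic microglial genes, which mark resting microglia, lay near the bulk of genes, with a median of -0.058 as deposited and 0.055 centred over 36 genes. Their summed level was 104668 to 112640.0 TPM in wild types and 100296 to 112789 TPM in homozygotes, and overlapped. Slc2a5, a fructose transporter of microglia, had the smallest p, at 363, 411, 424 and 354 TPM in wild types and 300.1, 288, 313 and 346 TPM in homozygotes (difference -0.32, adjusted p = 0.0838). Cst3, which encodes the protease inhibitor cystatin C, gave 0.0081.

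Disease-associated microglial genes, a program seen in neurodegeneration, had a median of 0.084 over 38 genes, with 12 higher and 2 lower at an unadjusted p under 0.05 (all genes 2.57% and 17.1%). Their summed level overlapped, 37461 to 41774 TPM in wild types against 38753 to 42358 TPM in homozygotes. The glycoprotein Gpnmb, a member of this program, stood at 2.69, 1.20, 2.62 and 3.25 TPM in wild types and 8.72, 14.1, 6.31 and 8.35 TPM in homozygotes. Every homozygote was above every wild type, HOM-8285 the most, and the difference was 1.58 (SE 0.261). It was not called as deposited (adjusted p = 0.0512) but was with median centring and in RPKM (1.505, adjusted p = 0.0228). Heterozygous minus wild type was 0.29, and homozygous minus wild type at 17 months 0.68. Abundant members did not share that size, since Apoe gave 0.15 and Tyrobp 0.014 with overlapping animals.

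Antigen presentation genes of MHC class II were led by Cd74, the invariant chain. It had 1046, 1053, 987 and 1128 TPM in wild types and 1464, 1943, 1190.3 and 1600.3 TPM in homozygotes, and H2-Aa had 510.3, 521, 474 and 598 TPM and 781, 1188, 613 and 834 TPM. Homozygotes were above wild types for both, again with HOM-8285 highest, and the adjusted p-values were 0.0838 and 0.0896. The list as a whole had a median of 0.053 over 15 genes, with members from -0.80 to 0.66. At an unadjusted p under 0.05, 5 were higher and 1 was lower (all genes 2.57% and 17.1%). The sum of the list did not overlap, 11523 to 12554 TPM in wild types against 13749 to 15170.1 TPM in homozygotes. Most of this sum is Ctss, which is also a lysosomal gene, at 8482 to 9374 TPM in wild types. Whether the groups stay apart without Ctss was not tested. MHC class I genes had a median of 0.038 and B2m, their light chain, gave 0.15 (adjusted p = 0.195).

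Ccl12, a chemokine that attracts monocytes, had 180.1, 172, 185 and 208 TPM in wild types and 279.5, 321, 257 and 255 TPM in homozygotes. The groups were apart, the difference was 0.57 with an adjusted p of 0.0815, and in RPKM it was called (0.65, adjusted p = 0.0476). The chemokines Ccl3 and Ccl4 varied widely between animals, from 205 to 1259 TPM for Ccl4, with differences of -0.033 and -0.14. Complement C3 stood at 5.47, 5.08, 4.33 and 3.47 TPM in wild types and 11.3, 9.32, 7.86 and 5.90 TPM in homozygotes, without overlap (difference of 0.76, adjusted p = 0.0896), and C1qa, C1qb and C1qc, which start the classical pathway, gave -0.059, -0.077 and -0.032. Interferon response genes had a median of -0.12 as deposited and -0.0068 centred (41 genes, 3 lower and 0 higher at an unadjusted p under 0.05, where 17.1% and 2.57% of all genes were), and Mx2 was listed at 0 in all 8 libraries. Nucleic acid sensing genes had -0.066 and 0.046 (18 genes). Tmem173, which encodes STING, gave -0.12 and the adaptor Mavs -0.23 (adjusted p = 0.202 and 0.111). Immediate early genes, which cell dissociation can induce, had a median of 0.13 over 33 genes and summed levels that overlapped, 21165 to 26228 TPM in wild types and 16882 to 24731 TPM in homozygotes.

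Lists of metabolism and cell upkeep gave no call. Oxidative phosphorylation genes had a median of 0.028 over 74 genes, and Uqcrh, a subunit of complex III, had the smallest p (0.32, adjusted p = 0.119). All 19 glycolysis genes had a lower mean as deposited (median -0.11), but 9 were higher with median centring (all genes 54.2%), and Pfkl, a phosphofructokinase, gave -0.30 (adjusted p = 0.13). Cholesterol synthesis genes had a median of -0.11 (0.0042 centred), with their sum at 342 to 361 TPM in wild types and 309 to 335 TPM in homozygotes. Scap, which encodes a sterol sensor, gave -0.23 (adjusted p = 0.0896). Lipid efflux genes had -0.036, proteasome genes -0.022, genes of stress in the endoplasmic reticulum -0.058, and cell cycle genes 0.046. Genes of complement and phagocytosis had -0.045, and those of NF-kB and cytokine signalling 0.073. Hmgb2, a chromatin protein of dividing cells, gave 0.34 (adjusted p = 0.0896).

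Transcripts of other cell types differed between the groups, although none of their genes was called. In bulk samples, fewer cells of a type and less RNA per cell cannot be told apart. Endothelial markers summed to 1320.3, 994, 1521 and 838 TPM in wild types and 796, 668, 784 and 750.0 TPM in homozygotes. Homozygotes were all lower, and 18 of 20 tested members had an unadjusted p under 0.05 with a lower mean (all genes 17.1%), with a list median of -1.05. Kdr, the receptor for vascular endothelial growth factor, had 6.59, 5.52, 8.29 and 4.96 TPM in wild types and 3.49, 2.37, 3.60 and 3.98 TPM in homozygotes (adjusted p = 0.133). Cells of the vessel wall (mural markers, median -0.81) summed to 45.5 to 129 TPM in wild types and 31.3 to 41.4 TPM in homozygotes. Choroid plexus and ependymal markers (median -0.68) summed to 715 to 1196 TPM and 273 to 631 TPM, with Rarres2 listed at 0 in all 8. Ttr, the transport protein of the choroid plexus, made up most of that sum, with 831, 766, 1002 and 599.7 TPM in wild types and 233, 385, 545 and 384 TPM in homozygotes. Astrocyte markers (median -0.51) summed to 248 to 405 TPM in wild types and 185 to 246 TPM in homozygotes. Homozygotes were below wild types in each of these 4 sums.

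Neutrophil markers went the other way, with a median of 1.21 over 20 genes. At an unadjusted p under 0.05, 12 were higher and 1 was lower (all genes 2.57% and 17.1%). They summed to 2946, 2182, 1218 and 1505 TPM in wild types and 4344, 4269, 5294 and 2257 TPM in homozygotes, which overlapped through WT-8322 and HOM-8287. The calcium-binding proteins S100a8 and S100a9 carried most of that sum, S100a8 with 957, 621, 288 and 453 TPM in wild types and 1473, 1657, 1877 and 747 TPM in homozygotes (difference 1.36, adjusted p = 0.123). Monocyte markers had a median of 0.73 over 17 genes, with 8 higher and 1 lower at an unadjusted p under 0.05. Their lowest member stood at -1.43. They summed to 375 to 531 TPM in wild types and 489 to 887 TPM in homozygotes. Ms4a4c, one of them, gave 0.73 (adjusted p = 0.0838). Markers of T and NK cells summed to 53.4 to 72.2 TPM and 57.6 to 143 TPM, those of B and plasma cells to 46.6 to 61.1 TPM and 54.1 to 59.1 TPM, and those of border macrophages to 978 to 1106 TPM and 946 to 1317 TPM. Oligodendrocyte markers summed to 1967 to 2458 TPM and 1744 to 2207 TPM, those of their precursors to 5.38 to 8.52 TPM and 4.87 to 5.96 TPM, neuronal markers to 23.4 to 34.0 TPM and 24.04 to 32.8 TPM, and erythrocyte markers to 77.7 to 1122 TPM and 57.6 to 207 TPM. Wild types and homozygotes overlapped in all 9 sums of this paragraph. The part of these cell markers in the ribosomal, MHC class II or tRNA synthetase differences was not tested.

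**Figure D4:**
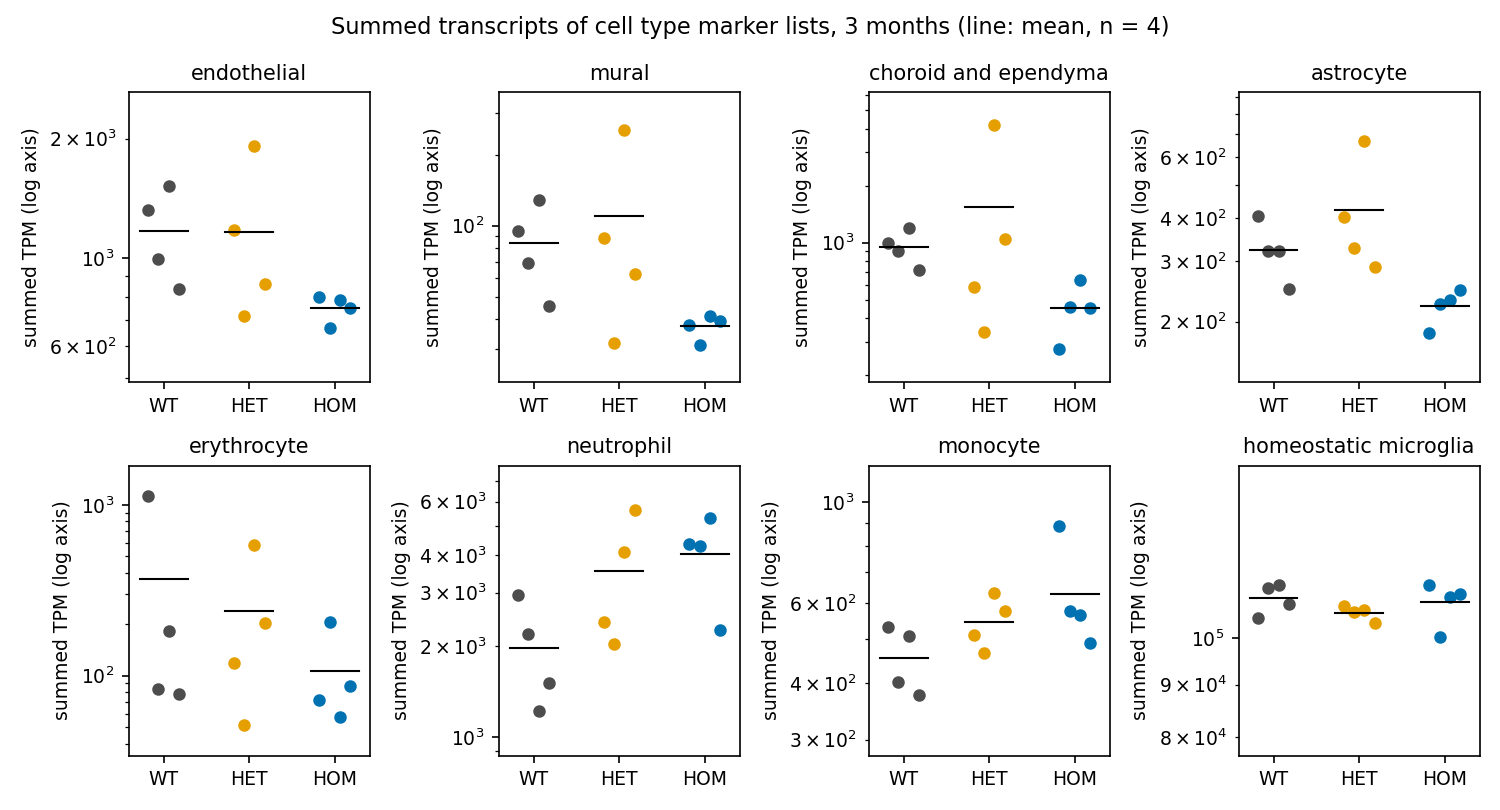
Summed TPM (log axes) of marker lists in each animal of 3 months, by genotype, with a line at the mean (n = 4). Homozygous animals lie below all wild types for endothelial, mural, choroid and ependyma, and astrocyte markers, overlap them for erythrocyte, neutrophil, monocyte and homeostatic microglia markers, and HET-8304 is the highest heterozygote for endothelial, mural, choroid, astrocyte and erythrocyte markers.

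Whether the genotype difference itself differed between 3 and 17 months was tested for 11436 genes over 24 libraries. It was called for 29 (0.254%), 6 with a larger and 23 with a smaller difference at 3 months. The deposited scaling bears on that balance as well, since the all-gene median of the difference between ages was -0.16, and median centring gave 423 calls, 336 larger and 87 smaller at 3 months. The ages stand in tables of their own, so each genotype difference was taken within its age. Leaving out 1 library at a time moved the count to 358 without the 17-month wild type WT-7782, 203 without WT-8326 and 28 without HOM-7835, and to between 1 and 11 without each of the other 13 wild-type or homozygous libraries. The 8 heterozygous libraries were not left out for this count. Nr1h2, which encodes the sterol receptor LXR beta, had 107, 104, 106 and 101 TPM in wild types and 94.8, 89.5, 93.2 and 92.2 TPM in homozygotes at 3 months (difference -0.18), and a difference of 0.46 at 17 months, so that the ages differed by -0.63 (adjusted p = 0.0406). None of the 7 genes called at 3 months was among the 29. For the target the ages differed by -0.45 (adjusted p = 0.161), for Rps15a by 0.37 (adjusted p = 0.0647) and for Rpl39 by 0.43 (adjusted p = 0.0841).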

How the data were processed

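Bulk RNA-seq of CD11b-collected microglia was used from 24 mice, 4 per genotype at 3 and 17 months, with genotype and age from the labels. The deposited values are, by the names of the tables, TPM summed to the gene and, in separate tables, RPKM. The submitters' processing notes name TopHat2 2.1.1, Partek 7.17.0918, Salmon 0.8.2, DESeq2 and mm10 without tying them to a table, and the annotation is not given in the sources used here. TPM shares 1 total among genes, so a rise of abundant genes lowers the rest. Column headers give an animal number for each library, and every column was mapped.

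The 11587 of 20636 genes that averaged 1 TPM or more at 3 months (12 animals) were fitted with limma 3.58.1 in R 4.3.3, with a trend, on log2(TPM + 1), with 1 mean per genotype. Homozygous minus wild type was tested and Benjamini-Hochberg adjusted p-values under 0.05 were called. The difference between ages used all 24 libraries and 11436 genes. The target was tested by exact permutation (70 assignments, scipy 1.17.1, Python 3.11.15). The fit was tested on simulated data. The sex was read from Y-linked genes (summed level over 5 TPM). Depth was known only as alignments per library, so no counting interval was given. Locations and lengths came from GENCODE M21 and promoter windows from RefSeq.

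The members and the 45 gene lists (43 with a member tested) were chosen with earlier results of these data known, and lists are described by counts and medians without a test. Sums over lists are of TPM as deposited, so they hold the all-gene shift. Named were the called genes, the 10 next by p in each direction whose animals did not overlap, the 3 most abundant members of each list and its member with the smallest p, and all members of the C9ORF72 and oligosaccharyltransferase lists. Tmem119, P2ry12, Rpl21, Rpl22l1, Rps21, Rpl29, Btf3, Npm1, Mx2 and Rarres2 fall outside this rule and were named after their values were seen. Alternatives were the pseudocount, the filter, the RPKM table, scaling, a sex term, array weights, fewer groups and leaving out each animal (for the difference between ages, each wild type and homozygote).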

Additional observations from a re-analysis of the deposited data

Results flagged for a closer look

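For the named genes and list sums, 460 groups of 4 animals were tested for 1 animal far from the other 3, and 28 were found. Chance alone gives about 1 in 20 groups, so the count is near that of chance. The groups are also not independent, since a sum holds genes that were tested singly.

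HOM-8285 gave 8 of these gene values and the glycolysis sum below. Among the homozygotes it was lowest for the alanyl-tRNA synthetase Aars (79.4 TPM, the other 3 at 88.4 to 90.2), the autophagy receptor Sqstm1 (172 TPM, the others at 224 to 228), the protease Ctsd (9029.9 TPM, the others at 10977 to 11333), Gabarap (362 TPM, the others at 404 to 412) and the glycolytic enzyme Gapdh (1126 TPM, the others at 1474 to 1532). It was highest for the sterol oxidase Msmo1 (29.4 TPM, the others at 22.7 to 23.1), the macrophage transglutaminase F13a1 (73.8 TPM, the others at 50.7 to 52.9) and the globin Hbb-bs (71.0 TPM, the others at 17.0 to 21.4). Summed glycolysis genes were also lowest there, at 3134 TPM against 3796 to 3908. HOM-8282 was highest for H2-D1 (1042 TPM) and Cox4i1 (619 TPM). HOM-8286 was lowest for Gpr17, a gene of oligodendrocyte precursors (0.359 TPM), and highest for Optn, at 0.0121 TPM, where the other homozygotes were listed at or near 0.

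Globin transcripts set WT-8322 apart from the other wild types. Hba-a1 stood at 424 TPM there and at 19.4 to 67.6 in the others, Hba-a2 at 234 against 12.4 to 27.3, Hbb-bs at 346 against 24.1 to 58.8, and the erythrocyte sum at 1122 against 77.7 to 182. The same animal was highest for Rab39b (0.185 TPM) and lowest for Ctss (8482 TPM) and for the summed genes around the C9ORF72 complex (999.7 TPM against 1045 to 1049). WT-8323 was highest for Fam219a (35.0 TPM), the nucleolar protein Fbl (122 TPM), Atg13 (19.5 TPM) and the sum of ribosome biogenesis genes (982 TPM, the others all near 915). WT-8326, the male wild type by its Y-linked transcripts, was lowest for the ribosomal stalk protein Rplp2 (2169 TPM against 2401 to 2423), Ost4 (216 TPM) and the sum of mitochondrial ribosomal proteins (3096 TPM against 3273 to 3300.1). WT-8325 was lowest for Hmgb2 (21.4 TPM).

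By the test of the difference itself, 29 genes had a genotype difference that differed between the ages. Among them Nr1h2 differed by -0.63 and Rpl21 by 0.43 on the log2 scale (3 months minus 17 months).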

How the results depend on the processing

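The count of 7 called genes moved to 23 with a mean of at least 5 TPM, 23 with the homozygous and wild-type animals alone, 26 with median centring, 2 with quantile normalization, 2 with a sex term and 1836 with array weights. It was 7 with a pseudocount of 0.1, 8 without a filter, and 6 in RPKM. Settings chosen after seeing the data gave 19 (RPKM with median centring), 2 (median centring with a sex term) and 5 (animals without Y-linked transcripts). Leaving out 1 animal gave 2 to 103, the highest without HET-8304, the lowest without any of 8 animals. Of 24 alternatives, 3110043O21Rik remained called in all, Tlr12 in 20 (adjusted p from 0.000578 to 0.105), Rps15a in 9, Gm3435 in 8, Rpl39 in 8, Rpn2 in 7 and Rab11fip5 in 6. Rpn2 turned to 0.029 in RPKM with median centring. The target's difference of mean TPM was -23.52 to -21.78 without 1 animal, with an exact permutation p of 0.0571, the smallest that 3 against 4 allow. The median of the 82 ribosomal protein genes, 0.22, was 0.28 in RPKM, 0.34 with median centring, 0.13 with quantile normalization, 0.17 in animals without Y-linked transcripts, 0.32 in RPKM with median centring, 0.33 with median centring and a sex term, and 0.19 to 0.24 without 1 animal. The count of 29 genes that differed between ages was 26 with a pseudocount of 0.1, 43 with at least 5 TPM, 556 in RPKM, 423 with median centring, 58 with a sex term and 1 to 358 without 1 wild-type or homozygous library. The cause of these shifts was not tested. No paired analysis was possible because the table columns carry animal numbers and not the replicate numbers of the labels. Neither table holds read counts, so no count model was run, and with 4 animals per genotype, differences near the all-gene shift could not be resolved.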
